A study of Caenorhabditis elegans with 3 samples.

Results

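Peaks of trimethylated lysine 4 on histone H3 (H3K4me3) that lay away from promoters numbered 255 of 639 in the F14' library of Caenorhabditis elegans and 55 of 95 in the F11 library. They are the unique intervals whose class in the authors' annotation was upstream, intergenic, intron or exon, that is, any class but promoter. The class depends on position relative to the genes that the authors listed, so no level of the mark was used to choose them. The listing differed between the tables: more than 1 gene was given at 1 of 95 F11 peaks and 122 of 639 F14' peaks. Shares away from promoters in F11 and F14' are therefore not strictly comparable. The mark was profiled in whole nematodes of wild-type genotype by ChIP-seq, the sequencing of DNA recovered with an antibody against it, with 1 library in each of 3 groups. The control grew on nematode growth medium (NGM) plates with K-medium and no drug, and it gave no peak table used here. F11 had been exposed on such plates to sulfamethoxazole (SMX), a sulfonamide antibiotic, through 11 generations, for 6 days in each. F14' is described in the labels as the first unexposed progeny of that line and grew with K-medium only. The sources used here do not give the SMX dose, the developmental stage at fixation or the generation of the control. A whole nematode mixes germline and somatic nuclei, and a peak cannot be assigned to either.

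H3K4me3 is laid down by COMPASS-type methyltransferases, of which SET-2 is the main one in this nematode, and it typically sits around the start of genes that are being transcribed. Most of its genes are trans-spliced, so that the annotated start of a gene can lie downstream of the place where transcription begins. Regulatory elements far from genes usually carry monomethylation of the same lysine more than trimethylation.

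Tags are the sequenced fragments counted in a peak, the fold is the ratio of the ChIP signal to the caller's background, and the score is minus 10 times the base-10 logarithm of the peak's p. All 3, with the class and the assigned gene, are the authors' own values. With 1 library a group, the differences described here lack a check by replicates, and intervals are exact Clopper-Pearson 95% intervals that cover counting error only. Library depth is not among the values used. Peaks of the F11 table held 169447 tags and those of F14' 1264155. Folds of F11 and F14' rest on different backgrounds and are not read as a change in the mark. Of the 95 F11 peaks, 94 carried a deposited FDR of 100% and 1 a deposited FDR of 0%.

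Peaks away from promoters, classed by their centre, held most of the tags in peaks. No control signal was subtracted from the tag counts here, so shares of tags are not shares of the mark. In F14' they were 39.9% of the peaks (36.1 to 43.8%) and 48.2% of the length in peaks, yet they carried 856906 tags, 67.8% of all tags in peaks. In F11 they were 57.9% of the peaks (47.3 to 67.96%) and 62.1% of the length, and they carried 131346 tags, or 77.5%. Pooled over their length, the F14' peaks away from promoters had 1239 tags per kb against 546.8 in promoter peaks. In F11 these densities were 932.2 and 443.7 tags per kb. A few peaks carried much of this: the 10 with the most tags gave 35.9% of the tags away from promoters in F14' and 74.3% in F11. Without the peaks away from promoters whose near edge was within 2 kb of the assigned start, the share of tags was 47.0% in F14' and 52.0% in F11.

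**Figure D1:**
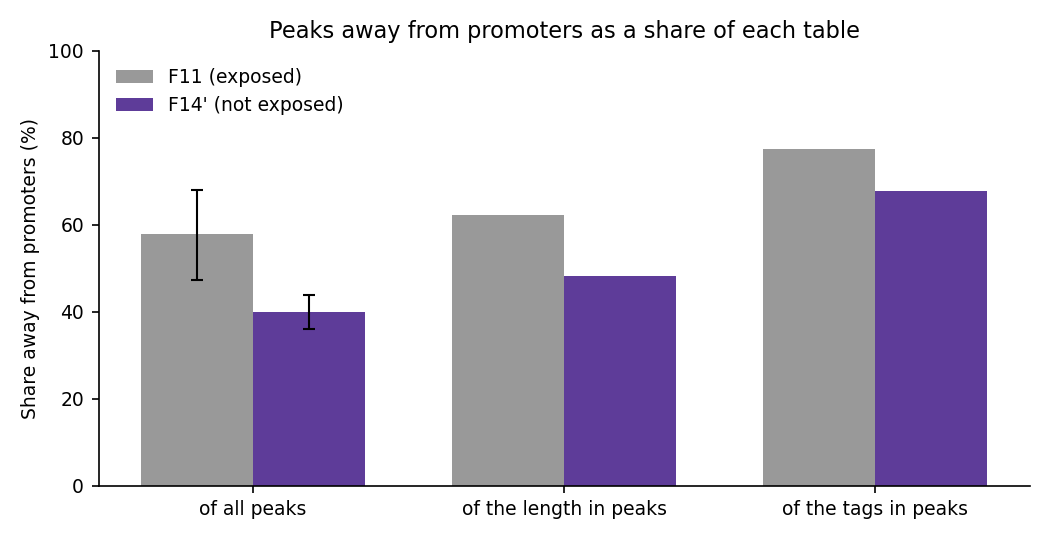
Bars give the percentage of each table that lies in peaks away from promoters, counted as peaks, as covered length and as tags, for F11 (grey) and F14' (purple), with exact 95% binomial intervals on the shares of peaks. In both tables the share of tags (77.5% and 67.8%) is above the share of peaks (57.9% and 39.9%).

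All 10 F14' peaks with the most tags lay away from promoters, 7 of them upstream and 3 intergenic. The first was the peak assigned to F14F11.2 on chromosome II (8286702 to 8293315, build ce10), with 44316 tags in 6614 bp and a fold of 4.37. The second was assigned to Y7A5A.7 on chromosome X (15806526 to 15811768), with 40755 tags and a fold of 7.66. The third, assigned to elk-2 on chromosome X (108744 to 114793), held 38152 tags at a fold of 3.16. A fold of at least 5 was found in 6 of the 10, against 20.4% of F14' peaks away from promoters and 15.2% of all F14' peaks. The highest fold among the 10 was that of Y7A5A.7, below the maximum of 29.89 for peaks away from promoters. Of the 10, 4 lay on chromosome X, and 4 were wide enough to contain the assigned start although their centre lay beyond 2 kb. In F11, 7 of the 10 peaks with the most tags lay away from promoters, led by C34E11.9 with 31515 tags and anr-53 with 22629.

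The median peak away from promoters differed less from the median promoter peak than the pooled densities do. In F14' the medians were 324.2 and 294.9 tags per kb, while the upper quartiles were 764.5 and 346.0. At least 1000 tags per kb were reached by 51 of 255 peaks away from promoters (20.0%, 15.3 to 25.4%) and by 26 of 384 promoter peaks (6.77%, 4.46 to 9.76%), against 12.1% of all F14' peaks. Of the 77 F14' peaks at that density, 66.2% lay away from promoters (54.6 to 76.6%). In F11 the counts were 6 of 55 and 2 of 40, against 8.42% of all F11 peaks. The difference thus lay in the upper part of the distribution, as the lower quartiles in F14' were 287.6 and 282.2 tags per kb.

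A deposited fold of at least 5 was found in 52 of 255 F14' peaks away from promoters (20.4%, 15.6 to 25.9%) and in 45 of 384 promoter peaks (11.7%, 8.68 to 15.4%), against 15.2% of all F14' peaks. Among peaks with a score of at least 100 these shares lay closer together, at 43.3% and 37.8%, while at that score 42.5% and 21.8% had at least 1000 tags per kb. In F11 it was found in 2 of 55 and 2 of 40, against 4.21% of all F11 peaks. With a fold of at least 3 the F11 counts were 14 of 55 and 6 of 40, against 21.1% of all. Tags and fold picked overlapping but not identical sets of peaks. Of the 51 dense F14' peaks away from promoters 36 had a fold of at least 5, against 16 of the 204 below 1000 tags per kb. Folds of the 51 ran from 2.83 to 29.89 with a median of 6.49. The 26 dense promoter peaks had a higher median fold, 10.8. Width differed too: 79 of 255 F14' peaks away from promoters were at least 3 kb wide (31.0%, 25.4 to 37.1%) against 36 of 384 promoter peaks (9.38%).

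The classes describe position relative to the assigned gene. Of the F14' peaks 132 were upstream, 84 intergenic, 21 intron and 18 exon, and of the F11 peaks 24, 27, 2 and 2. Every upstream peak had its centre before the assigned start, and every intergenic peak had its centre past the end of the assigned gene. Intergenic in these tables therefore means downstream of a gene, by a median of 2506 bp in F14' (233 to 7856 bp) and of 2505 bp in F11 (495.5 to 5782 bp). The limit between promoter and other classes was 2 kb between peak centre and start. Just inside it in F14' were F36D3.4 at -1997 bp with a fold of 2.25 and catp-4 at 1992 bp with a fold of 1.57. Just outside were Y38C9B.3 at -2012 bp with a fold of 2.27 and srxa-15 at 2025 bp with a fold of 2.15. In F11 the nearest were 21ur-5573 at -1891 bp with a fold of 2.00 and clec-70 at -2086 bp with a fold of 1.86.

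The label was checked against other measures of position. No F14' centre lay within 2 kb of another start, among the genes that the tables list (0 of 255), whereas 5 of 55 F11 centres did. For F14' this check says little. More than 1 gene was listed at 102 of 384 F14' promoter peaks and at 0 of 40 F11 promoter peaks. An interval with any listed gene in the promoter class counted as promoter, so F14' peaks near a second start could already be placed there. Genes that neither table lists were not examined. The centre is a strict measure for a wide peak: the near edge was within 2 kb of the assigned start in 98 of 255 F14' peaks and 29 of 55 F11 peaks, and within 1 kb in 31 and 2. The assigned start lay inside the peak in 7 F14' peaks, all upstream, and in no F11 peak. Those 7 were assigned to Y119C1B.13, fbxa-75, Y32H12A.9, clec-175, elk-2, Y95D11A.4 and srsx-7, and 6 of them had over 1000 tags per kb. Without the peaks whose edge was within 2 kb, 157 F14' peaks away from promoters were left, of which 14.6% had at least 1000 tags per kb and 17.8% a fold of at least 5. They held 47.0% of the tags in the peaks that remained.

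**Figure D2:**
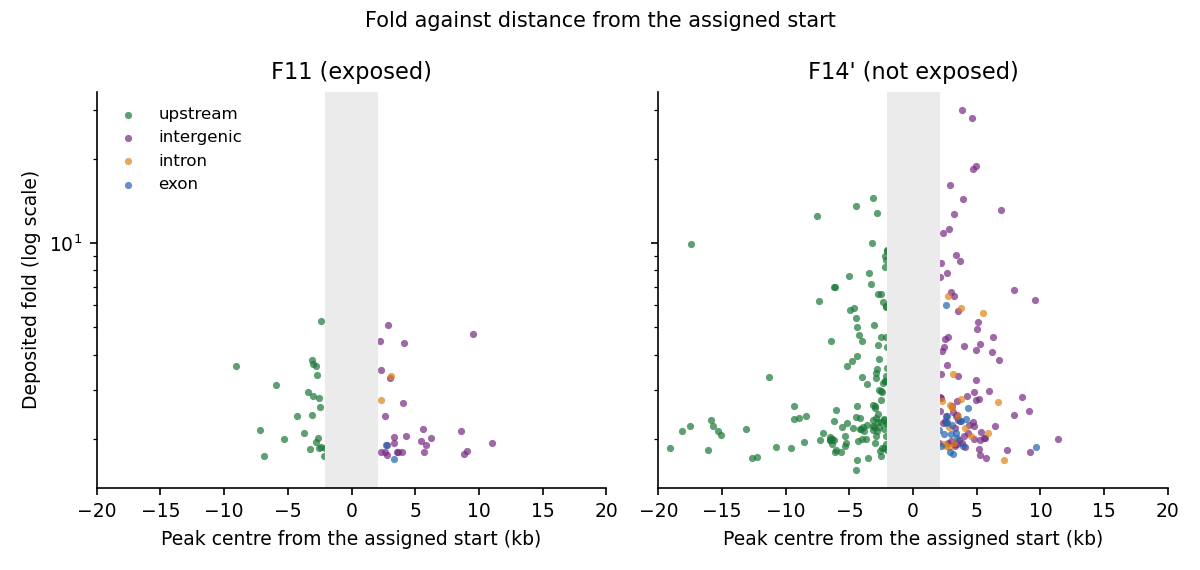
Each point is a peak away from promoters, with the signed distance of its centre from the assigned start in kb (negative is upstream) against the deposited fold on a log scale, coloured by class; the grey band is the 2 kb promoter limit, and 2 F14' intron peaks beyond 20 kb are not drawn. In F14' the folds above 15 are all in intergenic peaks, past the end of the assigned gene.

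Upstream peaks lay at a median of 3963 bp before the start in F14' (2012 to 19112 bp) and of 3032 bp in F11 (2086 to 9072 bp). Their median fold was 2.36 in F14' and 2.42 in F11, and their median density 323.8 and 332.3 tags per kb. The highest F14' fold in the class was that of B0403.6 on chromosome X (7076978 to 7079693), 14.51 with 5371 tags per kb. Y95B8A.2 followed at a fold of 13.55 and R13A5.11 at 12.81. Dense peaks were found mainly within 5 kb: 12 of 49 peaks at 2 to 3 kb and 12 of 37 at 3 to 5 kb had at least 1000 tags per kb, against 3 of 32 at 5 to 10 kb and 0 of 14 beyond 10 kb. Median folds in these bands were 2.99, 2.62, 2.08 and 2.13. Beyond 10 kb, 1 of 14 had a fold of at least 5, the peak of unc-68 at -17436 bp with a fold of 9.89 and 948.6 tags per kb. The 14 also held nob-1, a Hox gene of posterior identity, at -19112 bp with a fold of 1.85, and mboa-6, named as a membrane-bound O-acyltransferase, with a fold of 2.23. The centre of the mboa-6 peak was only 2106.5 bp from the start of another listed gene. The widest upstream peak, listed with srsx-7, spanned 9423 bp at a fold of 1.68, near the class minimum of 1.55.

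In F11 the upstream peak with the highest fold was assigned to srh-245, a chemoreceptor gene, with 958 tags and a fold of 5.25. Its centre was 554.5 bp from the start of srh-246, so the label away from promoters does not hold for it with that neighbour. The densest was that of anr-53 on chromosome III (1299258 to 1303483), with 5355 tags per kb and a fold of 3.71. Y75D11A.1 and Y51A2B.16 had 1660 and 1603 tags per kb. The remaining 21 F11 upstream peaks were all below 1000 tags per kb.

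In F14' intergenic peaks held the highest folds of the classes away from promoters, whereas in F11 their median fold of 1.96 was below the 2.42 of upstream peaks. The F14' median fold of the class was 2.79 and its median density 359.9 tags per kb, with an upper quartile of 1057. The peak assigned to dnc-6, which encodes a dynactin subunit, had a fold of 29.89 with 8596 tags in 1844 bp (chromosome I, 3171103 to 3172946). The peak assigned to fbxa-55, of the F-box A family of ubiquitin-ligase adaptors, had a fold of 27.88 and, at 7849 tags per kb, the highest density of any F14' peak. Y106G6H.9 followed at a fold of 18.89 with only 1567 tags. None of these 3 intervals overlapped an F11 peak. Dense intergenic peaks were spread over the distances, with 6 of 22 at 2 to 3 kb, 9 of 37 at 3 to 5 kb and 7 of 24 at 5 to 10 kb.

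In F11 the intergenic class held C34E11.9, with 6594 tags per kb over 4779 bp of chromosome X (11785187 to 11789965), a fold of 4.39 and the table's highest score, 3100. It was also the peak with the FDR of 0%. The highest F11 folds in the class were 5.08 at pes-10, 4.72 at mys-2, a MYST-family histone acetyltransferase, and 4.49 at T13G4.1. The last had 389 tags, so a fold this high could come with few tags. Y54F10AM.8 showed the reverse, with 14755 tags and a fold of 2.14.

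Intron and exon peaks were few and mostly resembled promoter peaks in level. The 21 F14' intron peaks had a median fold of 2.42 and 297.6 tags per kb, and the 18 exon peaks 2.13 and 288.9, beside 2.25 and 294.9 for promoter peaks. Of the intron peaks 3 had a fold of at least 5: Y81B9A.2 on chromosome X (6.49, with 10737 tags), Y18H1A.14 (5.85) and usp-39, a homologue of a spliceosomal ubiquitin-protease-like protein (5.63). Y81B9A.2 was the only intron peak above 1000 tags per kb. Among the exon peaks only H03A11.2 on chromosome X stood out, with a fold of 6.01 and 1068 tags per kb. The next exon fold was 2.58 and the next exon density 303.1 tags per kb. A score of at least 100 was reached by 8 of 21 intron peaks (38.1%) and 1 of 18 exon peaks (5.56%), beside 37.4% of all F14' peaks.

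Peaks inside genes were spread over the gene body. Intron centres lay at a median of 51.9% of the gene's span (30.7 to 80.3%) and exon centres at 49.6% (8.36 to 97.9%). The host genes were long, with a median span of 6800 bp for intron peaks and 6894 bp for exon peaks, beside 1344 bp for genes of promoter peaks. A centre more than 2 kb inside a gene requires a gene of at least that span, so the class itself sets part of this difference. The exon class had 2 peaks in nep-17, a neprilysin-family peptidase gene, 98 bp apart with folds of 2.58 and 2.42, and 1 in duox-2, a dual oxidase gene, of 3767 bp with a fold of 1.89. An intron peak listed with Y105E8A.43, Y105E8A.41 and Y51F10.12 had an annotated span of 287769 bp, so its distance of 138541 bp rests on an unusually long annotated gene. In F11 the intron class had stim-1, the sensor of calcium in the endoplasmic reticulum, with a fold of 3.35, and oac-39 with 2.75. The F11 exon peaks, in C06C6.7 and K10B4.1, had folds of 1.90 and 1.69.

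**Figure D3:**
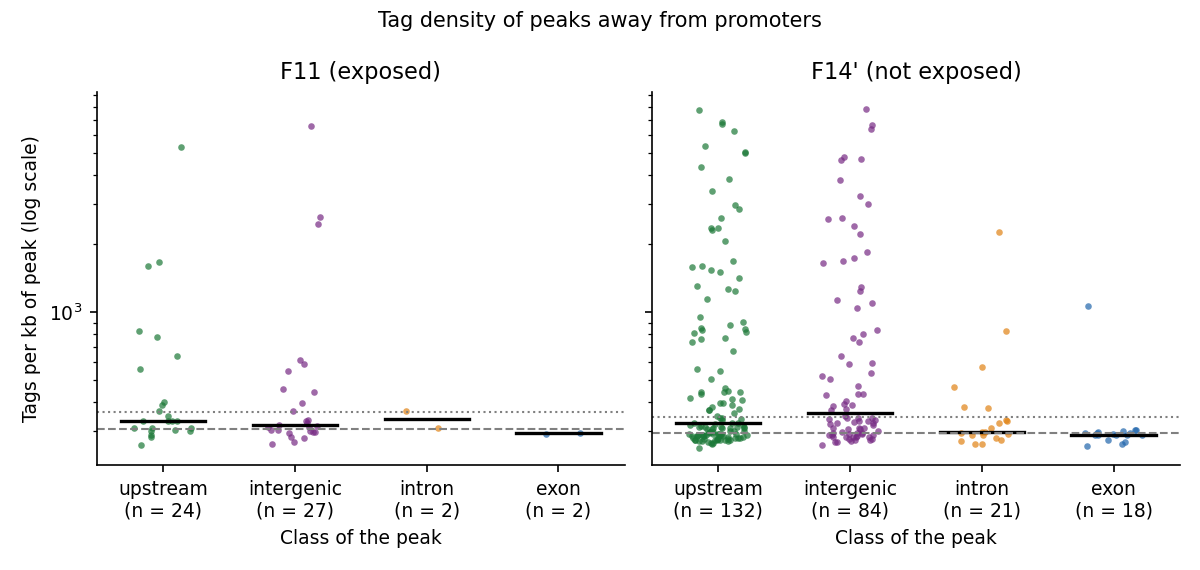
Each point is a peak away from promoters, with its tags per kb on a log scale by class; black bars are class medians, and the dashed and dotted grey lines are the median and upper quartile of promoter peaks of the same table. In F14' the class medians run from 288.9 to 359.9 tags per kb, while the upstream and intergenic classes reach 7773 and 7849.

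Peaks away from promoters were more often on chromosome X than promoter peaks were. In F14' 36 of 255 lay there (14.1%, 10.1 to 19.01%) against 21 of 384 promoter peaks (5.47%, 3.42 to 8.23%). The gap was smaller without the peaks whose edge was within 2 kb of the assigned start, as 10.2% of the 157 left lay on X. Chromosome X made up 17.5% of the chromosome length considered. Intergenic peaks had 17 of 84 on X (20.2%, 12.3 to 30.4%) and upstream peaks 16 of 132 (12.1%, 7.09 to 18.9%). Seen the other way, 63.2% of the 57 peaks on X lay away from promoters (49.3 to 75.6%), and 37.6% of the 582 peaks on the autosomes did (33.7 to 41.7%). In F11 8 of 55 peaks away from promoters and 1 of 40 promoter peaks were on X. Of the remaining chromosomes the largest gap in F14' was on chromosome IV, with 39 of 255 (15.3%) against 89 of 384 promoter peaks (23.2%). In F11 it was on chromosome II, with 13 of 55 (23.6%) against 15 of 40 (37.5%), a wider gap than on X.

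The peaks on X also stood higher. In F14' the 36 peaks away from promoters on X had a median fold of 4.10 and a median of 490.9 tags per kb, against 2.34 and 311.5 for the 219 on autosomes. A fold of at least 5 was reached by 12 of 36 on X (33.3%, 18.6 to 51.0%) and by 40 of 219 on autosomes (18.3%, 13.4 to 24.0%), so these intervals overlap. Promoter peaks leaned the same way, with a fold of at least 5 in 5 of 21 on X (23.8%, 8.22 to 47.2%) and 40 of 363 on autosomes (11.02%, 7.99 to 14.7%), and median folds of 2.38 and 2.25. The higher share on X was therefore not particular to peaks away from promoters. In F11 the order was not the same, with a median fold of 1.96 for the 8 peaks on X and 2.1 for the 47 on autosomes. C. elegans hermaphrodites carry a pair of X chromosomes and males a single one, and the labels do not state the sex ratio of the nematodes.

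**Figure D4:**
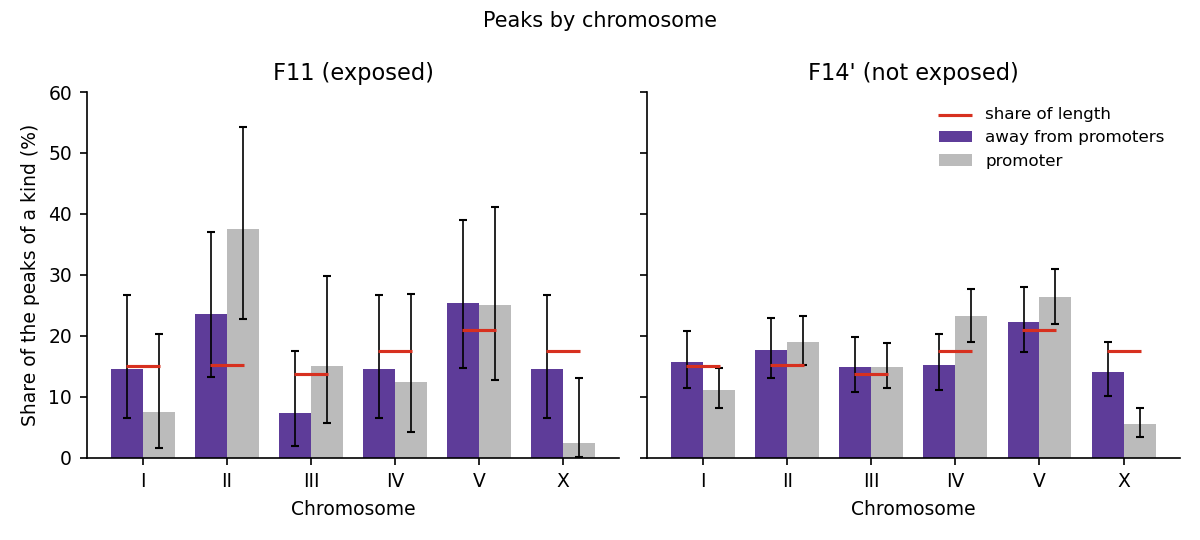
Bars give the percentage of peaks away from promoters (purple) and of promoter peaks (grey) that lie on each chromosome, with exact 95% binomial intervals, and red marks give each chromosome's percentage of the length. On chromosome X the F14' shares are 14.1% and 5.47%, beside 17.5% of the length.

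Along the chromosomes, each was divided into 3 equal stretches, the middle one called the centre and the outer ones the arms. The autosome arms of C. elegans are rich in repeats and the centres in conserved genes. In the centres lay 49 of 255 F14' peaks away from promoters (19.2%, 14.6 to 24.6%) and 62 of 384 promoter peaks (16.1%). In F11 these were 5 of 55 and 6 of 40. All shares were below the third of the length that the centres take up. By class, the F14' centres held 25 of 132 upstream, 18 of 84 intergenic, 3 of 21 intron and 3 of 18 exon peaks. Level differed more than number: F14' peaks away from promoters had a median fold of 2.97 and 538.0 tags per kb in the centres, against 2.32 and 310.6 in the arms. A fold of at least 5 was found in 15 of 49 peaks in the centres (30.6%, 18.3 to 45.4%) and in 37 of 206 in the arms (17.96%, 12.97 to 23.9%), with overlapping intervals. In F11 these counts were 0 of 5 and 2 of 50, and those of at least 1000 tags per kb 0 of 5 and 6 of 50. Promoter peaks had medians of 2.33 and 303.1 in the centres and of 2.25 and 294.3 in the arms.

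The peaks of the tables were then set beside each other. Of the 55 F11 peaks away from promoters, 34 overlapped an F14' peak of any class by at least 1 bp (61.8%, 47.7 to 74.6%), against 55.8% of all F11 peaks, so the share was near that of the table. In the other direction 27 of 255 F14' peaks away from promoters overlapped an F11 peak (10.6%, 7.10 to 15.0%), against 8.45% of all F14' peaks. Both tables are labelled as called against a control, and they may share that 1 library. All 6 F11 peaks away from promoters with at least 1000 tags per kb overlapped an F14' peak. So did 13 of 14 away from promoters with a fold of at least 3, and 9 of 24 with a fold under 2. The 2 dense F11 promoter peaks, and the 6 F11 promoter peaks with a fold of at least 3, all overlapped one too. Overlap of strong peaks was thus not particular to peaks away from promoters. The F11 peaks away from promoters with an F14' partner had a median fold of 2.52, and the 21 without one 1.90. In F14' the 27 peaks with an F11 partner had a median fold of 2.77 and 408.2 tags per kb, and the 228 without one 2.38 and 313.4. Split at a fold of 5, the F14' overlap was 6 of 52 above and 21 of 203 below, and it was 15.8% among peaks with a score of at least 100. The F11 tags at F14' peaks with no F11 partner are not listed, so the mark there in F11 is unknown.

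Where a peak was found in both tables, tag density was close. In the 27 pairs that were away from promoters in both, F14' had a median of 1.03 times the tags per kb of F11 (0.771 to 2.02), and 15 of 27 were higher in F14'. In the 19 pairs of promoter peaks the median was 0.968. At the stim-1 intron peak the density was 368.1 tags per kb in F11 beside 376.4 in F14', with folds of 3.35 and 3.40. The peak upstream of acd-5, a gene of the acid-sensitive DEG/ENaC channel group, had the largest ratio, from 642.5 tags per kb and a fold of 2.85 in F11 to 1298 and 5.11 in F14'. The interval on chromosome X with C34E11.9 had the smallest, from 6594 to 5084 tags per kb, while its fold was 4.39 in F11 and 7.15 in F14'. Tag density and fold could thus differ in direction within a pair, and densities are not scaled for library depth.

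**Figure D5:**
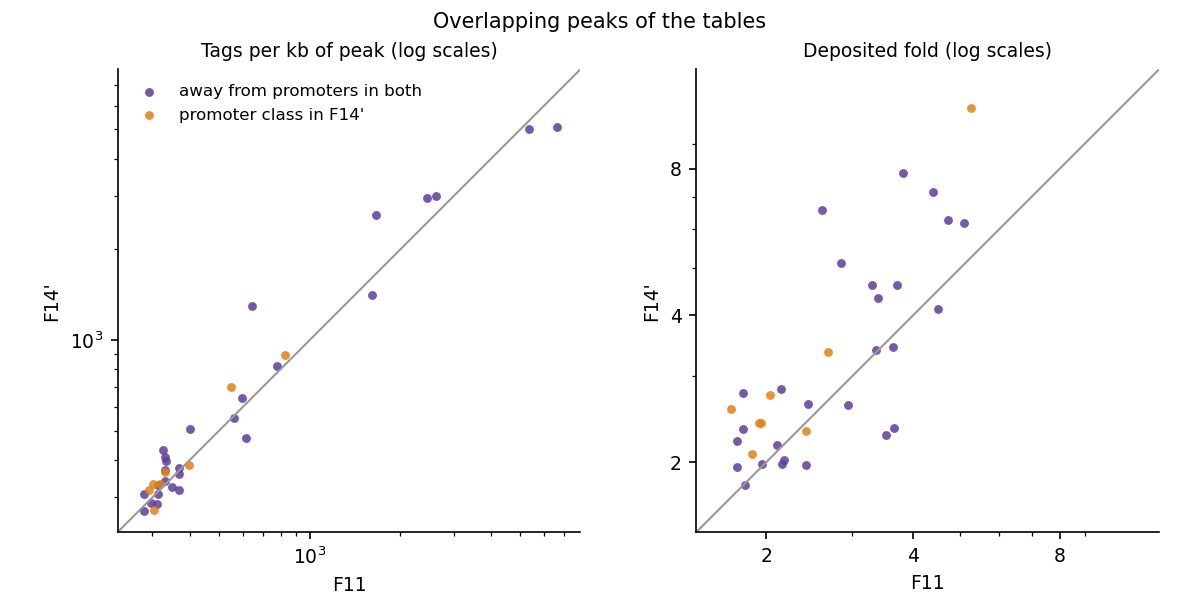
Each point is an overlapping pair of an F11 peak away from promoters (x axis) and an F14' peak (y axis), for tags per kb and for the deposited fold, all axes on log scales, with the line of equality in grey. Tag densities lie along the line (0.771 to 2.02 times), and folds scatter more widely around it.

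The class of an interval was not always the same in both tables. Among the 19 F11 promoter peaks that overlapped an F14' peak, none did so with an F14' peak away from promoters. More than 1 gene was listed more often in F14', and any listed gene in the promoter class made an interval promoter. A change in that direction was therefore harder to see. Of 35 pairs with an F11 peak away from promoters, 25 had the same class and 24 the same gene, and 8 had a promoter class in F14'. The 8 were assigned in F11 to srh-245, nlp-38, a neuropeptide gene, F32H5.4, linc-98, 3 piRNA genes (21ur-14457, 21ur-11334 and 21ur-12599) and K10B4.1. In 7 of them F14' named another gene, for example srh-246 at -535 bp for srh-245 at -2409 bp, while their tags per kb were 0.899 to 1.27 times those of F11. In K10B4.1 the gene was the same, but the intervals shared only 726 bp, and the centre lay at 3364 bp in F11 and at 1901 bp in F14'. A further 2 intervals were intergenic in F11 and upstream in F14', C34E11.9 with Y102F5A.1 and pes-10 with lgc-35. The tags per kb of these last intervals were 0.771 and 1.22 times those of F11. In these pairs, which needed a called peak in both libraries, a change of class came without a large change in tag density.

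Gene families were set by name patterns, chosen with earlier results of these data known. That for ion channels took in lgc-, acr-, twk-, best-, acd-, del-, glr-, exp-, gar- and slo- genes, unc-68 and egl-19. Channel genes with other names were not counted. Genes of this list were named mostly at peaks away from promoters. In F14' 10 of 255 such peaks named one (3.92%, 1.90 to 7.09%) and 1 of 384 promoter peaks did (0.26%, 0.00659 to 1.44%), against 11 of all 639 (1.72%). The 10 peaks belong to 7 genes, and 9 are upstream. Of the 10, 6 had a fold of at least 5, beside 20.4% of all F14' peaks away from promoters and 15.2% of all F14' peaks. The peak before unc-68, the ryanodine receptor that releases calcium in muscle, had a fold of 9.89 with 3136 tags, but its centre lay at -17436 bp. The peak before lgc-26, of the ligand-gated channel family, had 21886 tags and a fold of 8.99 at -2203 bp. The others of these 6 were best-2, a bestrophin (6.57), lgc-35, a GABA-gated channel gene (6.19), glr-5, a glutamate receptor subunit (5.93), and acd-5 (5.11). The lgc-35 peak lay at -7360 bp, and in F11 the overlapping interval was assigned to pes-10 at 2898 bp. Further peaks of listed genes were lower. A peak in an exon of unc-68 had a fold of 1.87, another upstream of glr-5 2.37, and those of lgc-30 2.21 and 1.95. In F11 3 of 55 peaks away from promoters named ion channel genes, acd-5, best-2 and lgc-30 (folds of 2.85, 2.60 and 1.74), so 0 of 3 had a fold of at least 5. None was named at the 40 F11 promoter peaks, and the share over all F11 peaks was 3.16%.

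Of the other families, piRNA genes, named 21ur, were listed at 8 of 255 F14' peaks away from promoters (3.14%, 1.36 to 6.09%). They were listed at 43 of 384 promoter peaks (11.2%, 8.22 to 14.8%), against 7.98% of all F14' peaks. A peak counted if any listed gene matched. More than 1 gene was listed at 20 of 255 peaks away from promoters and at 102 of 384 promoter peaks. By the nearest listed gene alone, piRNA genes stood at 7 of 255 (2.75%) and 31 of 384 (8.07%). Chemoreceptor genes were listed at 9 of 255 and 35 of 384 (6.89% of all), and C-type lectin genes at 4 of 255 and 15 of 384 (2.97% of all). F-box, MATH and BTB genes were at 9 of 255 and 12 of 384 (3.29% of all). The chemoreceptor peak with the highest fold was upstream of str-221 (9.36, with 4407 tags), and the others of that family were at 2.61 or less. Genes named linc or anr, counted as long noncoding RNA, were at 3 of 255 and 2 of 384 in F14', against 0.78% of all its peaks. In F11 they were at 4 of 55 and 1 of 40, against 5.26% of all, and the intervals overlap in both. By type of the nearest listed gene, lncRNA stood at 3 peaks away from promoters and 3 promoter peaks in F14', and at 2 and 2 in F11. Nuclear receptor (nhr-), homeobox (ceh-), collagen (col-, dpy-, rol-, sqt- and bli-) and histone (his-) genes were counted by name pattern only. In F14' these patterns matched 1, 2, 1 and 0 peaks away from promoters and 4, 4, 2 and 2 promoter peaks. The collagen match away from promoters, dpy-1, rests on its name alone. The Hox gene nob-1 falls outside the homeobox pattern and is not counted. In F11 piRNA genes were at 4 of 55 and 3 of 40, chemoreceptor genes at 4 of 55 and 4 of 40, F-box, MATH and BTB genes at 2 of 55 and 2 of 40, and C-type lectin genes at 1 of 55 and 1 of 40. By type of the nearest listed gene, 189 of 255 peaks away from promoters (74.1%) and 273 of 384 promoter peaks (71.1%) belonged to protein-coding genes. The assigned gene was not always the one with the nearest listed start, as at lgc-35 and mboa-6. Whether a peak acts on its assigned gene was not measured.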

How the data were processed

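H3K4me3 ChIP-seq peaks were taken from the annotated peak tables of F11 and F14', 1 library each; the control has no table here. Bowtie2 2.1.0, MACS 1.4.0rc2 and the build ce10 are named in the submitters' processing notes. Peaks were called per sample, per the labels. The authors deposited for each peak a whole-number count of tags, a fold (a ratio over the caller's background), a score and, for F11, an FDR in percent, per the file headers. The other 6 sheets hold titles only.

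The 103 F11 and 1025 F14' rows were collapsed to 95 and 639 unique intervals, each represented by the listed gene with the nearest start. Tags per kb are tags over width, not scaled for depth. Chromosome length is the highest coordinate in either table. Identifiers were matched to gene names in a RefSeq table of another assembly (WBcel235), 95 of 100 in F11 and 913 of 923 in F14'; no coordinate was taken from it. Shares carry exact Clopper-Pearson intervals; no p-value was computed. Overlap code was tested on simulated peaks. Members, gene lists and thresholds were chosen with earlier results of these data known. Peaks were named by rule: per class the 3 highest folds, the 3 highest densities and the 2 widest; the 3 farthest on each side; pairs that change class; up to 10 shared peaks; peaks of classes with 5 or fewer; and up to 3 per family. The peaks with the most tags, those containing the assigned start, and lgc-35, glr-5 and acd-5 in F14' were named after their values were seen. Alternatives were other distance limits, scores, folds, FDR, overlap rules and definitions of the centre. Intervals were computed with scipy 1.17.1, tables with pandas 2.3.3 and numpy 2.4.6, and plots with matplotlib 3.10.9, in Python 3.11.15.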

Additional observations from a re-analysis of the deposited data

How the results depend on the processing

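Of 115 recomputed values, 61 stayed within the interval or 1.5-fold range of the reported one and 54 moved, most by leaving only strong peaks. With centres more than 1 or 3 kb from the start, the share away from promoters was 83.2 or 35.8% in F11 and 63.5 or 26.3% in F14'. With a score of at least 100 it was 70.4% in F11 and 50.2% in F14', and with an FDR of at most 5% it was 100% of the 1 F11 peak left; F14' was used without an FDR. At that score the F11 make-up was 57.9% upstream (also the share on the upstream side) and 0.0% exon, and that of F14' 41.7% intergenic and 0.83% exon. Median F11 intergenic width and density became 4779 bp and 593.9 tags per kb. In F14', upstream peaks had medians of 3352 bp, 854.7 tags per kb and a fold of 4.48, intergenic peaks 755.3 tags per kb and 4.46, and the 1 exon peak left 3309 bp, 1068 tags per kb and 6.01. Total tags over total length gave upstream and intergenic densities of 884.4 and 1017 in F11 and 1323 and 1352 in F14', and 578.7 for F14' introns.

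At a score of at least 100, a fold of at least 5 was found in 43.3% of F14' peaks away from promoters and 37.8% of promoter peaks. Shares of at least 1000 tags per kb were 42.5 and 21.8% (31.6% away in F11), shares on chromosome X 21.7 and 8.40% (0.0% of F11 promoter peaks), and shares in the chromosome centres 26.7 and 21.8% (37.5% of F11 promoter peaks). A fold of at least 3 was reached by 35.3% of F14' peaks away from promoters, 21.9% of its promoter peaks and 25.5% of F11 peaks away from promoters. Centres taken as the middle 50% of the length held 32.9% of F14' peaks away from promoters, 29.9% of its promoter peaks and 37.5% of F11 promoter peaks. Without the peaks whose edge was within 2 kb of the start, a density of at least 1000 tags per kb was left in 14.6% of F14' peaks and a fold of at least 5 in 0.0% of F11 peaks. Centres near another listed start numbered 3 (within 1 kb) or 8 (within 3 kb) in F11 and 7 (within 3 kb) in F14'. Genes of any listed family stood at 5 F11 and 18 F14' peaks away from promoters with a score of at least 100. Overlap with F14' peaks of that score fell to 47.3% of F11 peaks away from promoters, and F11 peaks of that score overlapped in 89.5%; F14' peaks of that score overlapped F11 in 15.8%.

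The settings for chromosome X, for density, for the score in the F14' overlap and for the peak edge were chosen after seeing the data. No paired analysis was possible because each group has 1 library, and for the same reason leaving out a replicate was not an option. Library depth, the control's tags and the F11 tags at peaks called only in F14' are not known here, and these limit every comparison between the tables.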
